A study of Homo sapiens with 3 samples.

Results

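Of the 5968 MEIS1 peaks called in CWR22Rv1-LV-MEIS1 prostate carcinoma cells, 282 (4.73%) had their summit in an exon, an untranslated region or the end of a gene, and these are described here. They were chosen by the first word of the annotation deposited for each peak, and not by any measured value. The 282 peaks fell into 5 classes: 87 at gene ends, 59 in coding exons, 58 in 5' UTRs, 43 in non-coding exons and 35 in 3' UTRs. A gene end runs from 100 bp before to 1 kb after the last base of a transcript, and non-coding exons belong to transcripts without a protein. CWR22Rv1 is an established human prostate carcinoma line, and transduced cells were selected with puromycin. LV-MEIS1 cells expressed MEIS1 from a lentiviral vector and kept endogenous HOXB13, and HOXB13ko-LV-MEIS1 cells expressed it after CRISPR knockout of HOXB13, in a pool recombined from knockout clones that carried Cas9. The MEIS1 immunoprecipitations were pooled for each line before peak calling (3 for LV-MEIS1, 2 for HOXB13ko-LV-MEIS1), and the headers of both peak lists name the same input. The study's methods speak of input made for each cell line, and which input fits the knockout pool could not be settled, so fold enrichment in that list may rest on input of the other line. Each line therefore has 1 peak list and no replicate error. All intervals below are 95% intervals that cover counting error only, and no p-value was computed.

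MEIS proteins are homeodomain factors of the TALE family, which bind DNA at the core word TGACA and act with HOX partners. HOXB13, the main HOX protein of prostate epithelium, prefers the core word ATAAA on one strand, which reads TTTAT on the other. A binding site inside an exon shares its bases with the transcript: in a 5' UTR it lies close to the promoter, in a coding exon the same bases are read as codons, and in a 3' UTR or at a gene end it lies far from the promoter of its own gene. Such sites are usually named for the nearest transcription start site, which can be that of another gene.

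The sequences that follow show the MEIS core word at the strongest word-holding peak of each class, and at peaks that were found in both lines. Each is a window of 29 bases of hg38, read on the strand of the word, with TGACA in capitals. The 2 last sequences, chosen after their values were seen, also hold the HOXB13 word TTTAT, starting 2 bases after TGACA, in capitals.
SSBP2, 5' UTR, chr5:81751066-81751094, minus strand: gctgtgatgggtTGACAggtgcgtgacag
H2BC21, 3' UTR, chr1:149885792-149885820, minus strand: gcaaacactgcgTGACAgctctgtatgac
DNAH12, coding exon, chr3:57323013-57323041, minus strand: ttaggctttggcTGACAagctatccatct
TMEM143, non-coding exon, chr19:48333093-48333121, minus strand: acttccaataacTGACAggtgattatttt
ATP8B2, gene end, chr1:154351583-154351611, minus strand: gtgtgttagggaTGACAggttggcctgcg
EIF2B3, 5' UTR, chr1:44986587-44986615, plus strand: gccgcctctgacTGACAgcccaatggcgc
C1orf21, 3' UTR, chr1:184622357-184622385, minus strand: tgtaaatctcgtTGACAgtcttgccccac
PLA2G1B, gene end, chr12:120321565-120321593, minus strand: cataaatcctctTGACAgccctgtgaggt
CCND1, gene end, chr11:69654669-69654697, plus strand: aagaatgtctccTGACActgccacatccc
MFSD1, coding exon, chr3:158802061-158802089, plus strand: tgaccgccgtctTGACAgtgttccacggg
LINC00324, non-coding exon, chr17:8222552-8222580, minus strand: tttcgctttgatTGACAcgcgtcaatcta
TMCC1-DT, non-coding exon, chr3:129908614-129908642, plus strand: tagtctggcctgTGACAacaagactataa
SNORD3A, gene end, chr17:19188242-19188270, plus strand: ttgatggctcaaTGACAgagactagctcg
RAB27A, gene end, chr15:55201962-55201990, minus strand: gattcactTGACAtaTTTATatatttgtc
ASB15, 3' UTR, chr7:123637081-123637109, plus strand: aaattcatTGACAgtTTTATaggttatca

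The peaks were of ordinary strength for the LV-MEIS1 list. Fold enrichment, the ratio of pileup to local background at the summit with 1 added to both, had a median of 5.81 over the 282 peaks and of 6.17 over all 5968. The class medians were 6.41 in 3' UTRs, 6.11 at gene ends, 5.79 in non-coding exons, 5.51 in coding exons and 5.38 in 5' UTRs. Promoter peaks had a median of 5.96, intron peaks of 6.24 and intergenic peaks of 6.30. Gene ends without small nuclear and nucleolar RNA genes had a median of 6.38, and the lowest class median was that of 5' UTRs. The middle 50% of 3' UTR peaks ran from 5.59 to 8.51 and that of 5' UTR peaks from 4.63 to 6.31, and these ranges overlapped. Because MACS2 scaled the pool by a known factor, the pileup returned whole numbers of extended tags, within 0.05, at all 5968 summits. The 282 peaks rested on 78 to 345 tags, with a median of 135, against 147 in the whole list.

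**Figure D1:**
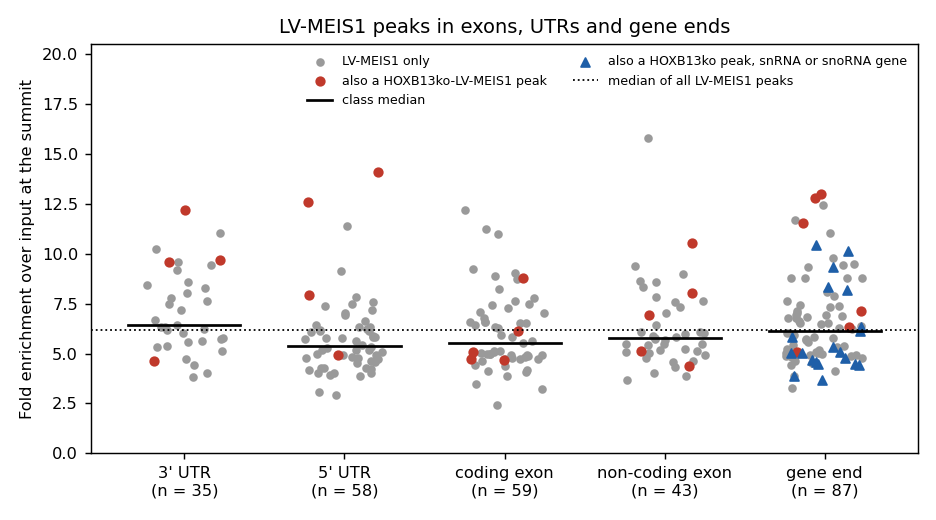
Fold enrichment over input at the summit of each of the 282 LV-MEIS1 peaks by class, with class medians as bars and the median of all LV-MEIS1 peaks as a dotted line. Red points and blue triangles mark peaks that overlap a HOXB13ko-LV-MEIS1 peak: all 20 triangles, the small nuclear and nucleolar RNA genes, stand in the gene end class at values from 3.67 to 10.4.

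Peaks in 5' UTRs lay mostly at the start of their genes, as their class implies. Their summits were a median of 184.5 bp from the nearest transcription start site, 54 of 58 lay within 1 kb, and 51 of 58 were in the first exon. SSBP2, which encodes a single-stranded DNA-binding protein, had the highest fold enrichment of the class at 14.1 (rank 69 of the list, 329 tags). EIF2B3, a subunit of the translation initiation factor eIF2B, followed at 12.6. The amino acid transporter SLC38A4 had 11.4 at exon 3 of 17, 32896 bp from the start site used for the annotation. CHRM1, a muscarinic acetylcholine receptor, had 9.13, and CLDN4, a tight junction claudin, had 7.94. The 58 peaks held GC-rich sequence, with a median GC content of 62.4% within 50 bp of the summit, the same value as promoter peaks.

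Peaks in 3' UTRs were the opposite in position, as their class implies, and in composition. All 35 were in the last exon or the only exon of their transcript, their median distance to a start site was 22293 bp, and their median GC content was 39.6%. The strongest was at H2BC21, a histone H2B gene, on chr1:149885601-149885992, with a fold enrichment of 12.2 and 325 tags. HSD17B13, which encodes a lipid droplet enzyme, had 11.0. MCL1, an anti-apoptotic member of the BCL2 family, had 10.2, C1orf21 had 9.66 and PABPC4L, a relative of the cytoplasmic poly(A)-binding proteins, had 9.58. The 3' UTR of ERBB4, a receptor tyrosine kinase of the EGFR family, held a peak of 9.41 that lay 761219 bp from the start site to which it was annotated. CDKN1B, which encodes the cyclin-dependent kinase inhibitor p27, had 6.21 in its 3' UTR.

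Coding exon peaks were mostly internal to their genes. Of the 59, 39 were in an internal exon, 11 in the first, 8 in the last and 1 in the only exon, and the GENCODE annotation placed 57 summits in coding sequence. FNIP1, which encodes a folliculin-interacting protein, had the highest value at exon 13 of 17, with a fold enrichment of 12.2 and 241 tags. DNAH12, an axonemal dynein heavy chain, had 11.3 at exon 64 of 74. ANKRD30B had 11.0, the sodium-proton exchanger SLC9A2 had 9.23 and LRTM2 had 9.03. None of these 5 was called in HOXB13ko-LV-MEIS1 cells, too few to read against the 7.66% of all LV-MEIS1 peaks that were.

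Non-coding exons held the strongest of all 282 peaks. It lay on chr19:48332292-48333353 in exon 6 of 6 of a TMEM143 transcript, which GENCODE places in a UTR, with a fold enrichment of 15.8 (rank 23 of the list) and 322 tags. The deposited annotation named it for EMP3, 7120 bp away, and it overlapped no HOXB13ko-LV-MEIS1 peak. The other leading peaks were at TMCC1-DT (10.5), LOC101928961 (9.38), LOC100289230 (8.97) and ANKRD13D (8.63). Last exons held 21 of the 43 peaks, internal exons 10, first exons 9 and single exons 3.

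Gene ends were the largest class and held 20 peaks at small nuclear and nucleolar RNA genes, short genes whose peaks all lay within 1 kb of the start site. Among the other 67, ATP8B2, a phospholipid flippase, had the highest fold enrichment at 13.0 with 291 tags. PLA2G1B, the pancreatic phospholipase A2, had 12.8. The peak 977 bp past the end of RAB27A, a GTPase of secretory vesicles, had 12.5 and 317 tags. LOC101929935 had 11.7, and FOXO3, a forkhead factor restrained by AKT signalling, had 11.6 at 190 bp past the end of its transcript. For 61 of the 67 peaks the distance to the nearest GENCODE transcript end of the same gene could be measured. Of these summits 49 lay past the end, and the median position was 264 bp beyond it. The class runs from 100 bp before to 1 kb after an end, so its definition favours positions past the end.

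Overlap with the HOXB13ko-LV-MEIS1 list, counted from 1 bp, was found for 44 of the 282 peaks (15.6%, Wilson interval 11.8 to 20.3%), against 7.66% of all LV-MEIS1 peaks. The excess over the 5686 other peaks was 8.34 percentage points (Newcombe interval 4.50 to 13.1). It came with the small RNA genes: all 20 of their peaks overlapped, and 24 of the other 262 did (9.16%, 6.23 to 13.3%). Without the small RNA genes the difference from the other LV-MEIS1 peaks was 1.90 points (-1.11 to 6.06), an interval that holds 0. By class, 26 of 87 gene end peaks overlapped (6 of 67 without the small RNA genes), as did 5 of 59 in coding exons, 5 of 43 in non-coding exons, 4 of 58 in 5' UTRs and 4 of 35 in 3' UTRs. The 5' UTR share of 6.90% did not separate from the 11.1% of promoter peaks (difference -4.16 points, -8.75 to 5.52), nor the coding exon share of 8.47% from the 5.34% of intron peaks (3.14 points, -1.77 to 13.1). The other 238 peaks were not called after HOXB13 knockout, in a pool with 105763683 tags against 202428594. Their signal in that pool was not analysed here, so lower depth and loss of binding cannot be told apart.

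The 20 small RNA peaks stood at 8 copies of the U2 gene RNU2-1 on chromosome 17, 5 U1 genes and variants, 5 U3 genes (SNORD3A to SNORD3D), RNU4-2 and RNU5B-1. These genes encode the RNA parts of the spliceosome and, for U3, of ribosomal RNA processing. Many copies are near-identical, so a read can match several of them, and the count at each copy is uncertain. In the LV-MEIS1 list the 20 peaks were mostly weak, with a median fold enrichment of 5.06 and a median percentile of 22.5. In the HOXB13ko-LV-MEIS1 list their median was 13.3 and their median percentile 98.3. At the U1 gene on chr14:34556037-34556447 fold enrichment was 4.57 in LV-MEIS1 cells (rank 5221 of 5968, 87 tags) and 18.7 in HOXB13ko-LV-MEIS1 cells (rank 1 of 2047, 194 tags). The scaled pileup, which the authors' procedure brings to the depth of the shared input in both lists, was 16.8 and 71.7 there, a ratio of 4.27 (interval 3.30 to 5.56). The 8 RNU2-1 peaks had fold enrichments from 4.41 to 6.11 in LV-MEIS1 cells, and SNORD3D had the highest value of the 20, 10.4. Scaled pileup was higher in HOXB13ko-LV-MEIS1 cells at 20 of 20 peaks, by 1.35 to 4.27 times, and every interval lay above 1. Since copies can share reads, the 20 peaks and their intervals are not independent of one another. A difference in immunoprecipitation between the pools cannot be told apart from a difference between the lines here either. A further 54 LV-MEIS1 peaks of other classes had a small nuclear or nucleolar RNA gene as nearest start, and 23 of them overlapped.

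The 24 other peaks found in both lines went mostly the other way. Their median fold enrichment percentile was 72.2 in the LV-MEIS1 list and 43.1 in the HOXB13ko-LV-MEIS1 list. The scaled pileup was lower in HOXB13ko-LV-MEIS1 cells at 18 of 24 and higher at 6, with a median ratio of 0.740. In 12 the interval of the ratio lay below 1, in 2 above 1, and in 10 it held 1. Only peaks called in both lists have such a ratio. It was not computed for LV-MEIS1 peaks of other classes, so these counts are not read as particular to the peaks described here. A difference in immunoprecipitation between the pools cannot be told apart from a difference between the lines. Among the 50 strongest peaks outside the small RNA genes 12 overlapped (24%), and among the 212 weaker ones 12 (5.66%). The whole list was not split by strength, so these 2 shares are not read as particular to these peaks.

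**Figure D2:**
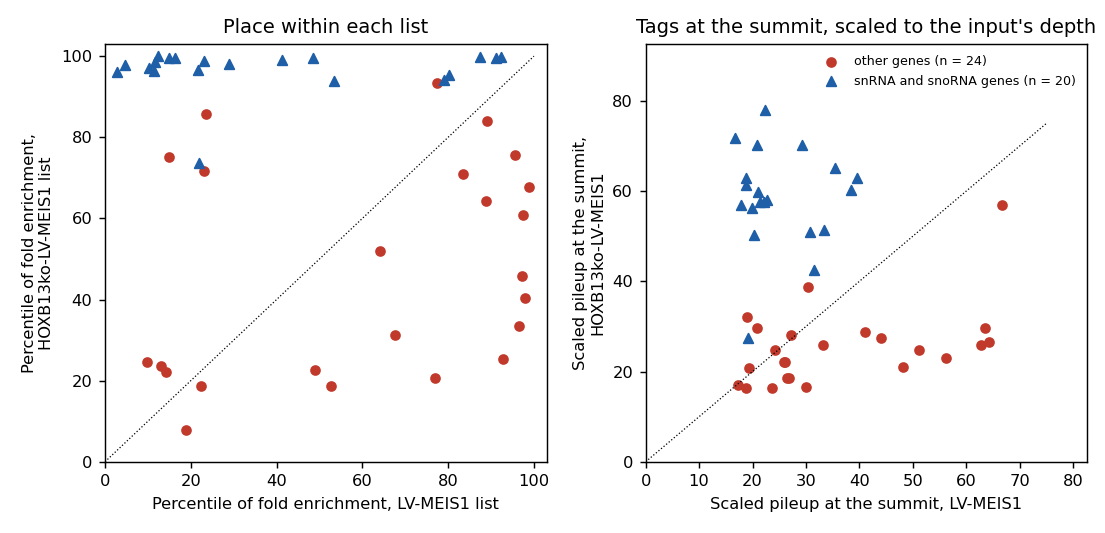
The 44 peaks called in both lines: on the left the percentile of fold enrichment in the LV-MEIS1 list (x) and the HOXB13ko-LV-MEIS1 list (y), on the right the scaled pileup at the summit in each list, with equality as a dotted line. The 20 small nuclear and nucleolar RNA genes (blue triangles) lie above equality in both plots, and 18 of the 24 other genes (red points) lie below it in pileup.

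Among peaks called in both lists, most of the leading ones in 5' UTRs and 3' UTRs had lower signal in HOXB13ko-LV-MEIS1 cells. Leading peaks, here and at gene ends, were ranked by fold enrichment in LV-MEIS1 cells. That ranking by itself favours lower values in the other list, so nothing is concluded from their direction. SSBP2 had a scaled pileup of 63.6 in LV-MEIS1 cells and 29.6 in HOXB13ko-LV-MEIS1 cells, a ratio of 0.466 (0.360 to 0.596). EIF2B3 had 48.1 and 21.1, a ratio of 0.438 (0.323 to 0.586). H2BC21 had 62.8 and 25.9, a ratio of 0.412 (0.314 to 0.535). All 3 intervals lay below 1. At C1orf21, the next strongest 3' UTR peak called in both lists, the ratio was 0.854 and its interval held 1 (0.702 to 1.04).

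At gene ends ATP8B2 had 56.2 and 22.9, a ratio of 0.408 (0.305 to 0.538), the lowest of the 24. FOXO3 had 44.04 and 27.4, a ratio of 0.621 (0.471 to 0.811). CCND1, which encodes the G1 cyclin D1, had 26.9 and 18.5, a ratio of 0.689 (0.488 to 0.958), on chr11:69654511-69655051. The clock-output factor DBP had 23.6 and 16.3, with a ratio of 0.690. TMCC1-DT, in a non-coding exon, had 64.3 and 26.6, with a ratio of 0.414 (0.316 to 0.535). PLA2G1B was at 0.484, CLDN4 at 0.556, the nucleoporin NUP42 at 0.699 and PABPC4L at 0.701.

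The 2 peaks outside the small RNA genes that were higher in HOXB13ko-LV-MEIS1 cells beyond counting error were at LAG3, an inhibitory receptor of T cells, and at exon 3 of LINC00324. LAG3 had 20.9 in LV-MEIS1 cells and 29.6 in HOXB13ko-LV-MEIS1 cells, a ratio of 1.42 (1.05 to 1.91). LINC00324 had 18.9 and 32.2 there, a ratio of 1.70 (1.26 to 2.29). For the pair of peaks at its exon 2 the summit values were 30.3 and 38.8, a ratio of 1.28 (0.990 to 1.65). C1orf21 was nearly level, with 66.6 and 56.9, a ratio of 0.854 (0.702 to 1.04) and the highest tag count of all 282 peaks, 345. The interval also held 1 at SUN1, a protein of the nuclear envelope, at LINC02396 and LOC101928728, and at all 5 coding exon peaks: RHNO1, MFSD1, SPI1, HSPB6 and MUC12. Summits of the 44 pairs were a median of 37 bp apart and 39 pairs were within 100 bp. Each ratio sets the summit of 1 list against the summit of the other. These lay 306 bp apart for the exon 2 pair of LINC00324 and 193 bp apart at HSPB6, so those 2 ratios compare different places. For 42 pairs the HOXB13ko-LV-MEIS1 summit had the same class, and the EIF2B3 and MFSD1 summits there were annotated to promoters.

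The MEIS core word was as common at these summits as elsewhere in the list. TGACA, on either strand, was within 50 bp of the summit in 156 of the 282 peaks (55.3%, 49.5 to 61.0%), against 56.1% of all LV-MEIS1 peaks. It was in 99 of 564 windows of equal width centred 500 bp to either side (17.6%), a difference of 37.8 points (31.0 to 44.2, with windows taken as independent). In 102 peaks the word was at the summit and in neither flank, and in 37 it was in a flank only. The share was 61.0% in coding exons, 60.5% in non-coding exons, 60.3% in 5' UTRs, 54.3% in 3' UTRs and 46.0% at gene ends. At gene ends without the small RNA genes it was 50.7%. The intervals of all 5 classes overlapped one another.

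**Figure D3:**
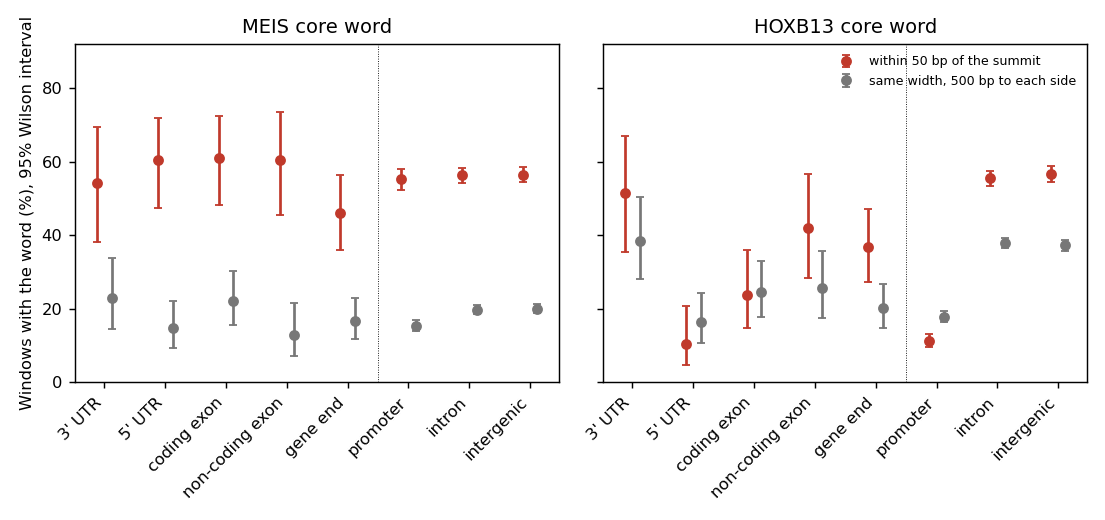
Share of windows that hold the MEIS core word (left) and the HOXB13 core word (right), with 95% Wilson intervals, within 50 bp of the summit (red) and in flanking windows of the same width (grey), for the 5 classes and, right of the dotted line, for promoter, intron and intergenic peaks. The MEIS word is higher at summits than in flanks in every class, and the HOXB13 word is lowest in 5' UTRs, at 10.3%.

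The word sat close to the summit, at a median of 11 bases among the 156 peaks that held it, and 49 peaks had 2 or more. The base after TGACA, read at 1 word for each summit, was G in 94 of 156 peaks (60.3%), as in SSBP2, H2BC21 and ATP8B2 above. Among all words in the flanks of the 282 peaks it was G after 28 of 105 (26.7%), a difference of 33.6 points (21.5 to 44.1). In the other LV-MEIS1 peaks it was G in 49.3%, and the 282 peaks stood 10.9 points above them (2.89 to 18.5). The share was highest in 5' UTRs, 27 of 35 (77.1%), and promoter peaks had 65.8%. Base composition moved with this measure, since GC content had a median of 54.0% in the 282 peaks and 42.6% in the others, and its part in the result was not tested.

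Peaks called in both lines held the word as often as the rest outside the small RNA genes, 14 of 24 (58.3%, 38.8 to 75.5%), against 136 of 238 peaks (57.1%) not called after knockout. Of the 20 small RNA peaks 6 held it (30.0%, 14.5 to 51.9%), and their flanks held it in 11 of 40 windows (27.5%). Those 6 were RNU5B-1 and the 5 U3 genes, whose windows had the same 29 bases as SNORD3A above and so are copies of 1 sequence. None of the 14 peaks at U1, U2 and U4 genes held TGACA within 50 bp of the summit.

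The HOXB13 core word ATAAA varied more between the classes. It was within 50 bp of the summit in 18 of 35 peaks in 3' UTRs (51.4%), 18 of 43 in non-coding exons (41.9%), 32 of 87 at gene ends (36.8%, or 32 of 67 and 47.8% without the small RNA genes), 14 of 59 in coding exons (23.7%) and 6 of 58 in 5' UTRs (10.3%). In introns the share was 55.5%, and coding exons differed from them by -31.7 points (-41.0 to -19.3). Summits in coding exons held the word no more often than their flanks did, 23.7% against 24.6% (difference -0.85 points, -13.2 to 13.2). At gene ends without the small RNA genes the summits were 21.6 points above their flanks (7.61 to 35.2). Such an excess was also found away from gene ends. It was 17.5 points in intron peaks (15.03 to 20) and 19.4 points in intergenic peaks (16.9 to 21.9). Promoter peaks went the other way, with a difference of -6.65 points (-8.944 to -4.235). HOXB13 binding was not measured in these lists, so ATAAA marks a sequence and not a bound site. Whether the word is common near transcript ends for other reasons was not tested. None of the 20 small RNA peaks held ATAAA, which allows a share of up to 16.1% by the Wilson interval.

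Classes with the lower GC content mostly had the higher share of ATAAA. Median GC content was 39.6% in 3' UTRs, 48.5% in non-coding exons, 52.5% at gene ends, 57.4% in coding exons and 62.4% in 5' UTRs, the reverse of the order of the word over all 282 peaks. Without the small RNA genes gene ends had 49.5% GC and a share above that of non-coding exons, so the reversal was then not exact. Intron peaks, at 39.6% GC, and promoter peaks, at 62.4% GC with the word in 11.2%, had the values of 3' UTRs and 5' UTRs within the counting intervals. The part of base composition in these shares was not tested.

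**Figure D4:**
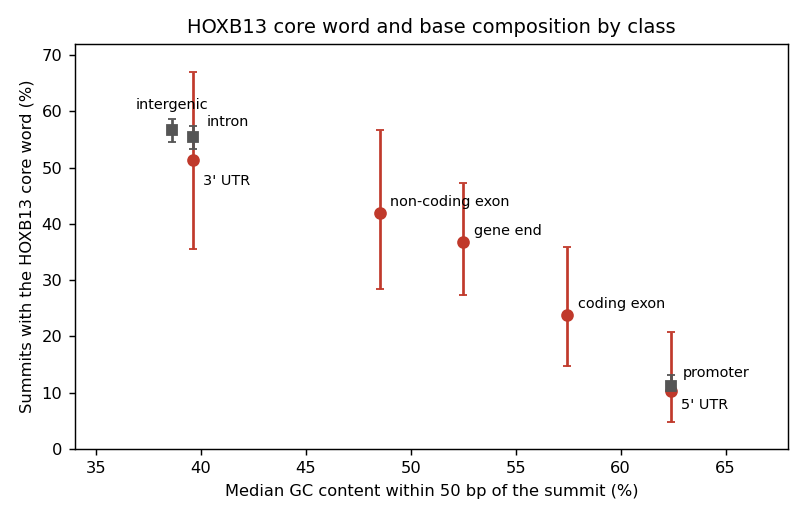
Share of summits with the HOXB13 core word within 50 bp (y, 95% Wilson interval) against the median GC content of the same windows (x), for the 5 classes (red) and for promoter, intron and intergenic peaks (grey squares). The share falls from 51.4% in 3' UTRs to 10.3% in 5' UTRs as GC content rises from 39.6% to 62.4%, with gene ends shown with the small RNA genes included.

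TGATTNAT, a word of HOX and PBX pairs, was at the summit of 19 of the 282 peaks (6.74%) and in 3 of 564 flanking windows (0.532%). In the other LV-MEIS1 peaks 13.0% of summits held it, a difference of -6.26 points (-8.81 to -2.61). Each class held it less often than the promoter, intron or intergenic peaks it was set against, but none separated from them. Coding exons differed from introns by -9.005 points (-13.4 to 0.501), and 5' UTRs from promoters by -0.625 (-3.43 to 7.71). Median GC content was 54.0% in the 282 peaks and 42.6% in the others, and its part in the difference was not tested. The order TGACA, 2 bases, TTTAT was found at 2 summits, at the end of RAB27A and in the 3' UTR of ASB15, both printed above. It was at 53 summits of the other LV-MEIS1 peaks (0.932%). Neither of the 2 peaks was called in HOXB13ko-LV-MEIS1 cells, too few to read against the 7.66% of all LV-MEIS1 peaks that were.

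In coding exons and other coding sequence the word could be placed in the reading frame for 32 peaks. In 14 the coding strand read TGACA and in 18 it read the complement, TGTCA. Of the 14, 0 began at the first base of a codon, 7 at the second and 7 at the third. A TGACA that begins a codon would open with TGA, which is a stop codon. The 18 on the other strand began 6 times at each codon position.

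The gene that holds a peak was often not the gene it was annotated to. The host gene, that of the transcript in the annotation, was found for 280 of the 282 peaks, and in 101 (36.1%) it differed from the gene of the nearest start site. Without the small RNA genes, whose copies share names, it differed in 96 of 260 (36.9%, 31.3 to 42.9%). The share was 26 of 35 in 3' UTRs, 32 of 65 at gene ends, 23 of 59 in coding exons, 15 of 43 in non-coding exons and 0 of 58 in 5' UTRs. The median distance to the start site was 12025.5 bp for the 96 and 902.5 bp for the others.

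Several leading peaks changed name in this way. The FOXO3 end peak was annotated to LINC00222, 66690 bp away, and MCL1 to ADAMTSL4-AS1. ERBB4 was annotated to CPS1-IT1, RAB27A to RSL24D1 and DBP to SPHK2. The 2 peaks in the 3' UTR of MIPOL1 were annotated to FOXA1, a pioneer factor of prostate epithelium, whose start site is 47976 and 44468 bp away. They had fold enrichments of 6.41 and 5.75. A peak of 5.61 in the 3' UTR of SLC8A2, a sodium-calcium exchanger, was annotated to MEIS3, a paralogue of MEIS1, 6164 bp away.

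Some host genes had a peak at their own promoter as well. The share over all genes was not computed, so the shares below are not read as low or high. Outside the small RNA genes the peaks had 251 host genes, and 21 of these (8.37%) also had an LV-MEIS1 peak annotated to their promoter. For the 163 host genes of peaks over 1 kb from a start site the number was 16 (9.82%). They included FOXO3, CDKN1B, TBX3, TMEM143 and PRDM9.

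Gene groups were set by the first letters of gene symbols or by short lists, so they miss genes of the same kind with other names. A homeobox gene or its antisense RNA was the host or nearest gene of 6 peaks. Of these 0 were called in HOXB13ko-LV-MEIS1 cells, too few to read against the 7.66% of all LV-MEIS1 peaks, and over the whole list 2 of 34 peaks nearest to such a gene were. HOXB-AS3, next to HOXB6, had a fold enrichment of 8.78 and HOXA-AS3, next to HOXA7, had 8.35. PAX9 had 7.49 in its 5' UTR, HOXA10 had 5.22, and PKNOX1, a TALE factor related to MEIS1, had 4.01 in its 5' UTR. The symbols listed for other transcription factors were host or nearest gene to 9 peaks, of which 1, at FOXO3, was called in both lines (19 of 201 over the whole list). DBP and SPI1, the blood cell factor PU.1, are factors outside those symbols and were also called in both lines. The listed ones included the ETS factor ETV1 at 7.58 and KLF5 at 4.25, both in 5' UTRs, and the T-box factor TBX3 at 4.87 at its gene end.

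Other groups held few peaks. The cell cycle group had CCND1 (7.15, called in both lines) and CDKN1B (6.21, not called after knockout). The matrix and adhesion group had 4 peaks, PCDH20 at 5.61, ITGA1 at 4.93, LAMB4 at 4.16 and PCDH7 at 3.28, and 0 of the 4 were called after knockout (2 of 50 over the whole list). CLDN4, called in both lines, and the fibrillin FBN2, at 5.11 and not called after knockout, lie outside its symbols. The histone group had H2BC21, called in both lines, and H2BC11 at 4.97. No peak had a ribosomal protein gene as host or nearest gene, and no gene of the prostate list was a host. KLK3, which encodes prostate-specific antigen, was the nearest start, 3115 bp away, to a peak of 6.87, and FKBP5, an androgen-responsive co-chaperone, to a peak of 7.35. Small nuclear RNA, small nucleolar RNA and microRNA genes were host or nearest gene to 30 peaks, and the 20 called in both lines were those at small nuclear and nucleolar RNA genes. Antisense RNAs were host or nearest gene to 22 peaks with 2 called in both lines, against 12 of 224 over the whole list. LINC RNAs were so to 16 with 4, which include the FOXO3 end peak and both LINC00324 peaks, against 39 of 480. The whole-list counts go by nearest gene only, and with so few peaks nothing is read from these shares.

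Repeated peaks within a gene were uncommon. Outside the small RNA genes 9 genes held 2 peaks each. RAB27A had 1 in its 3' UTR (8.60) and 1 at its end (12.5), and FNBP1L had 7.50 and 4.03 in its 3' UTR. TNFRSF10B, a TRAIL receptor, had 7.84 and 6.85. NAPEPLD had 4.73 on chromosome 7 and 6.14 on an alternate contig of the same region, so its 2 peaks may be 1 site of the genome. The others were ID2-AS1, SPEN-AS1, TMEM253, MIPOL1 and LINC00324. Of these only LINC00324 was called in HOXB13ko-LV-MEIS1 cells, at both of its peaks, and 7.66% of all LV-MEIS1 peaks were called there.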

How the data were processed

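MEIS1 ChIP-seq of 2 CWR22Rv1 lines was analysed from peak lists. The authors trimmed reads with Trimmomatic 0.38, removed duplicates with Picard 2.18.10, aligned to hg38 with Bowtie2, called peaks with MACS2 2.1.2 (q-value of 0.01, reads extended to 200 bp) on pooled immunoprecipitations against 1 input of 39102495 tags, and annotated summits with HOMER 4.9.1. Deposited values were the signal (pileup at the summit, scaled to the input), the fold enrichment ratio, −log10 p- and q-values, and the distance to the start site. Cell identity and MEIS1 levels cannot be checked in peak lists.

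Here overlaps, words in hg38, GC content and host genes (RefSeq transcripts, then GENCODE 44) were computed with Python 3.11.15, pysam 0.24.0 and statsmodels 0.14.6, and tested on simulated data. Intervals were Wilson (shares), Newcombe (differences) and exact binomial (tag ratios). Named genes were all peaks called in both lines, the 5 strongest of each class, members of the gene groups and genes with 2 or more peaks. ERBB4, ASB15, FBN2 and the host genes with promoter peaks were named after their values were seen. Members and gene lists were chosen with earlier results of these data known.

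Alternatives were other q-value and fold minimums, chromosomes, windows, words, overlaps and gene annotation.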

Additional observations from a re-analysis of the deposited data

How the results depend on the processing

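Of 48 recomputed values over 8 results, 40 stayed within the counting interval of the reported value or, for counts, within 1.5 times, 8 moved and 0 changed sign. The count of 282 peaks became 1798 when any base of the peak interval could touch a GENCODE exon or gene end and 1065 when the summit had to, since both by construction take peaks that the deposited annotation gives to other classes. The share called in both lines, 15.6%, was 9.16% without the small nuclear and nucleolar RNA genes, an alternative chosen after seeing the data, and 13.8% to 15.7% under the others. The share with TGACA was 66.3% within 100 bp, 41.8% within 25 bp and 35.1% for TGACAG, and its difference from the flanks was 30.3 points for TGACAG. The share with ATAAA was 39.0% within 100 bp. No interval held several summits and no member was annotated as a repeat, so these alternatives changed nothing. The single pooled list of each line, and the near-identical copies of small RNA genes, limit every comparison.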
